A study of Homo sapiens with 14 samples.

Results

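The 42 mitosis genes examined here encode the kinases, cyclins, motors and chromosome proteins with which a cell enters, runs and leaves mitosis. They were chosen by name from a list of mitotic genes: CDK1 with its cyclins and phosphatase, the mitotic kinases, the spindle checkpoint with its ubiquitin ligase partners, the chromosomal passenger proteins, the kinetochore, the kinesins, the spindle assembly proteins, the cytokinesis regulators, and TOP2A, MKI67 and FOXM1. Each gene was read at the locus of highest mean expression that carries its name. All 42 were found among the 27543 named loci of the table, and all 42 were among the 13137 loci that reached 1 FPKM (fragments scaled by transcript length and library size) in at least 2 of the 14 libraries and were tested. The member nearest to that limit was KIF14, which reached 1 FPKM in 9 libraries, followed by CDCA3 and CENPE in 11 and ASPM and CDC25C in 12.

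Expression was measured by poly(A)-selected RNA sequencing in MCF-10A, an immortalised line of human breast epithelium that forms no tumours, in 7 groups of 2 libraries, with RNA taken on day 2 of retroviral expression. The study asked how the actin-regulated coactivator MRTFB acts on genes of the TEAD coactivator YAP. The cells of the first group expressed YAP 5SA, a hyperactive YAP. The other constructs were 4 forms of MRTFB that do not bind G-actin, and every one of them carries that deficiency (dN): MRTFB dN Y305A/dPY binds neither SRF nor YAP, MRTFB dN Y305A does not bind SRF, MRTFB dN dPY does not bind YAP, and MRTFB dN has no further change. The controls expressed the empty pMSCV Puro vector or the empty pMSCV Hygro vector, and the labels do not say which vector belongs to which construct. Every construct is an overexpressed gene in 1 cell line: MKL2, the symbol of MRTFB in the table, stood at 610.1 and 343 FPKM in MRTFB dN Y305A/dPY, 404 and 294 FPKM in MRTFB dN Y305A, 286 and 171 FPKM in MRTFB dN dPY and 299.5 and 165 FPKM in MRTFB dN, against 6.6 and 3.66 FPKM in the Puro vector. The YAP 5SA libraries held 625 and 529 FPKM of YAP1, and the Hygro vector libraries 32.4 and 23.3 FPKM. The labels do not say whether replicates came from separate cultures, so p-values measure the spread between these libraries, which may be technical.

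Mitotic genes are transcribed late in the cell cycle, as cells pass through G2 into M phase, and are kept silent in quiescent and G1 cells. In human cells this timing depends on the MuvB complex, which with the pocket proteins RBL1 and RBL2 and E2F4 forms the repressor DREAM and with MYBL2 (B-MYB) an activator, and which contacts promoters at the cell cycle genes homology region (CHR). NF-Y at CCAAT boxes and FOXM1 take part in the activation, and YAP is known as a partner of the B-MYB form in some epithelial cells. In a culture of unsynchronised cells the summed level of these RNAs follows the share of cells in late cycle phases. In bulk libraries such as these, fewer cells in G2 or M phase and less of each RNA per cell cannot be told apart.

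The promoters of 6 members that regulate mitotic entry and exit are printed to show CHR and CCAAT motifs, which many members hold. They come from RefSeq on GRCh38.p14, span 250 bases before to 50 bases after the annotated start, and are written 5′ to 3′ on the gene's strand. Capitals mark the CHR core with the letters TTTGAA, the variant of that core with the letters TTTAAA, and the NF-Y box with the letters CCAAT, each also where the window holds the reverse complement of it. The windows are chr10:60778081-60778380 (plus strand) for CDK1, chr5:69166900-69167199 (plus) for CCNB1, chr15:59104896-59105195 (plus) for CCNB2, chr16:23678639-23678938 (plus) for PLK1, chr1:43358731-43359030 (plus) for CDC20 and chr5:138338306-138338605 (minus) for CDC25C.
CDK1: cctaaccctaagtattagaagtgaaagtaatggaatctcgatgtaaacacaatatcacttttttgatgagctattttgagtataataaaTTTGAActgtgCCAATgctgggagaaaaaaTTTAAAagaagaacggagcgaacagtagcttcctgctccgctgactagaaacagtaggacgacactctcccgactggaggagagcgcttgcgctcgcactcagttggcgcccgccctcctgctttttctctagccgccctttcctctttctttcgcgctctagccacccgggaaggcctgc
CCNB1: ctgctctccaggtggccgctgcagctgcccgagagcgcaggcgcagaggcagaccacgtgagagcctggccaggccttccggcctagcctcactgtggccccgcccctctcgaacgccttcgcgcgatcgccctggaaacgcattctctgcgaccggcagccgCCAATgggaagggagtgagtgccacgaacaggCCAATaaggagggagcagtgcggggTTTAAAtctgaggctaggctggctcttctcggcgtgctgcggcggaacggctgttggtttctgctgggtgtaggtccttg
CCNB2: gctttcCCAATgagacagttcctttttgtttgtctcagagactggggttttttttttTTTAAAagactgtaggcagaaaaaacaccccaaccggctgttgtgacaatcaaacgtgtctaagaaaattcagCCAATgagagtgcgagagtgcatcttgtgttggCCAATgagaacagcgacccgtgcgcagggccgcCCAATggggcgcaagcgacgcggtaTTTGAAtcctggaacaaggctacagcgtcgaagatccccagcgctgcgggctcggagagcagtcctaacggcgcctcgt
PLK1: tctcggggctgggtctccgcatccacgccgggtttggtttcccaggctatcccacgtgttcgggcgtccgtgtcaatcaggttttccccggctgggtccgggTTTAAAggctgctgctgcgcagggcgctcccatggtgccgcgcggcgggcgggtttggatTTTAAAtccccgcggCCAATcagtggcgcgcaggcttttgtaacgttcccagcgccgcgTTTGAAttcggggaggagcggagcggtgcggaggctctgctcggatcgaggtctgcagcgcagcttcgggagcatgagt
CDC20: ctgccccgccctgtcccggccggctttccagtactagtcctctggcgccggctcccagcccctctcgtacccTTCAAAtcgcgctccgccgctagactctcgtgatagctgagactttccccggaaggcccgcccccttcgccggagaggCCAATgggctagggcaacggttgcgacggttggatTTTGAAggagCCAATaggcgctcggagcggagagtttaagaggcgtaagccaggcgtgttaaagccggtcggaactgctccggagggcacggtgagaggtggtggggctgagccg
CDC25C: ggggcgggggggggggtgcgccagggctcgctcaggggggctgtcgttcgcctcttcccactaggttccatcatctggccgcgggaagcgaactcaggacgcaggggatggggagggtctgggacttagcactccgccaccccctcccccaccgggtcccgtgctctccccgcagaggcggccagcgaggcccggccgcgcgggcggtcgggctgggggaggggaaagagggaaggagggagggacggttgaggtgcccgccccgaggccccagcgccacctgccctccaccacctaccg
The RefSeq table held promoters of 36 members, and AURKA, TTK, TPX2, BIRC5, UBE2C and FOXM1 had no entry. With both strands searched, TTTGAA lay in 26 of the 36 windows (72.2%), against 15.4% of all 27303 promoters in the table. TTTAAA lay in 14 (38.9%, against 12.4% of all promoters), and TTTGAA or TTTAAA in 31 (86.1%, against 24.3%). CCAAT lay in 29 (80.6%, against 35.7%), and 18 windows held at least 2 copies (50%, against 11.3%). A CHR motif and a CCAAT box stood together in 25 windows (69.4%, against 9.49%). The CDK1 window held all 3 motifs and the CDC25C window none, which says only that these letters are not in these 300 bases. The motifs are a description of the sequences, not sites shown to be bound here.

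Some properties of the libraries touch all values of the mitosis genes. Read counts were not given, and the depth was estimated only in relative terms. It ran from 0.314 times that of Hygro vector replicate 1 in the shallowest library, Puro vector replicate 1, to 1.385 times in the deepest. Puro vector replicate 1 also had 4780 unnamed loci at 1 FPKM or more, against 211 to 669 in the others. MRTFB dN dPY replicate 1 holds no values for a part of the genome that includes 1 member, KIF4A, whose value was treated as missing there and whose fit rests on 13 libraries. Of the epithelial markers KRT5 stood between 554 and 5085 FPKM and CDH1 between 79.3 and 341 FPKM. KRT17 ran from 606 to 43206 FPKM, the KRT14,KRT16 locus from 31 to 2336 FPKM and the COL17A1 locus from 22 to 673 FPKM. The LAMB3 locus ran from 173 to 1486 FPKM, EGFR from 13.6 to 52.2 FPKM and TP63 from 0.545 to 10.4 FPKM. Of the luminal markers GATA3 reached 24.8 FPKM, KRT19 6.5 FPKM, ESR1 1.15 FPKM and ELF5 0.0821 FPKM in the highest library. The leukocyte, fibroblast and endothelial genes PTPRC, CD3E, COL1A2, PDGFRA, LUM and KDR did not exceed 0.07 FPKM in any library. Other markers of these cell types were not at 0: CDH5 reached 14.6 FPKM, the COL3A1 locus 3.76 FPKM, COL1A1 3.12 FPKM and PECAM1 0.211 FPKM in the highest library. CD68 was read on a locus shared with other genes, at 295 to 793 FPKM. The part of such cells in the results was not tested. The loci of 5 members carry a second gene (CENPA with SLC35F6, PLK1 with DCTN5, CCNA2 with BBS7, BUB1B with PAK6, KIF23 with PAQR5), so their values cannot be split between the genes, and reads of PTTG1 can belong to its near-identical copies.

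Most mitosis genes shared the group in which they were lowest. The median over members of the group mean of log2(FPKM + 1) was 4.07 in YAP 5SA, 3.22 in MRTFB dN Y305A, 2.82 in MRTFB dN, 2.11 in MRTFB dN Y305A/dPY and 1.36 in MRTFB dN dPY, against 3.87 in the Puro vector and 2.68 in the Hygro vector. Of the 42 members 36 had their lowest group mean in MRTFB dN dPY and 5 (CENPE, KIF23, KIF14, BIRC5 and ANLN) in MRTFB dN Y305A/dPY. The 1 remaining member, CENPA, was lowest in YAP 5SA. The highest group mean lay in YAP 5SA for 26 members, in MRTFB dN Y305A for PLK1, CENPA and TPX2, in MRTFB dN for ANLN, and in the Puro vector for 12. By library, the median FPKM over members was 15.2 and 16.6 in YAP 5SA, 2.97 and 4.5 in MRTFB dN Y305A/dPY, 6.46 and 11.0 in MRTFB dN Y305A, 0.952 and 2.67 in MRTFB dN dPY and 5.05 and 8.01 in MRTFB dN, against 10.5 and 16.3 in the Puro vector and 3.15 and 8.34 in the Hygro vector. Both MRTFB dN dPY libraries lay below every other library by this median. In MRTFB dN dPY replicate 1, 21 of the 41 members with a value stood under 1 FPKM, against 0 to 4 in each of the other libraries.

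**Figure D1:**
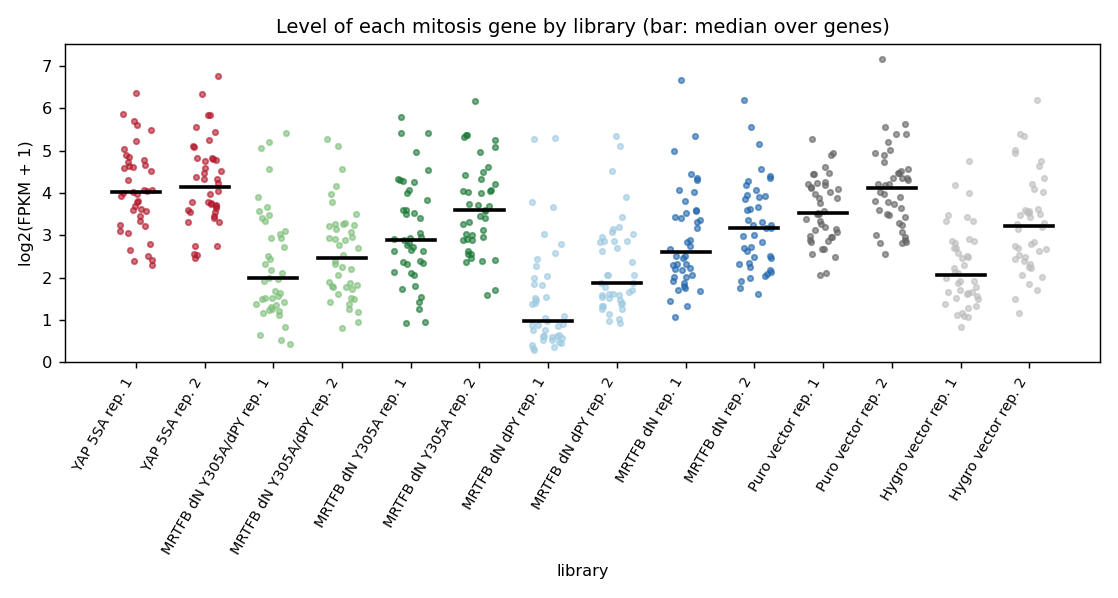
Level of the mitosis genes as log2(FPKM + 1) in each of the 14 libraries, 1 point per gene, with the median of each library as a bar. The medians reach 4.01 and 4.14 in YAP 5SA and are lowest, at 0.965 and 1.88, in MRTFB dN dPY.

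**Figure D2:**
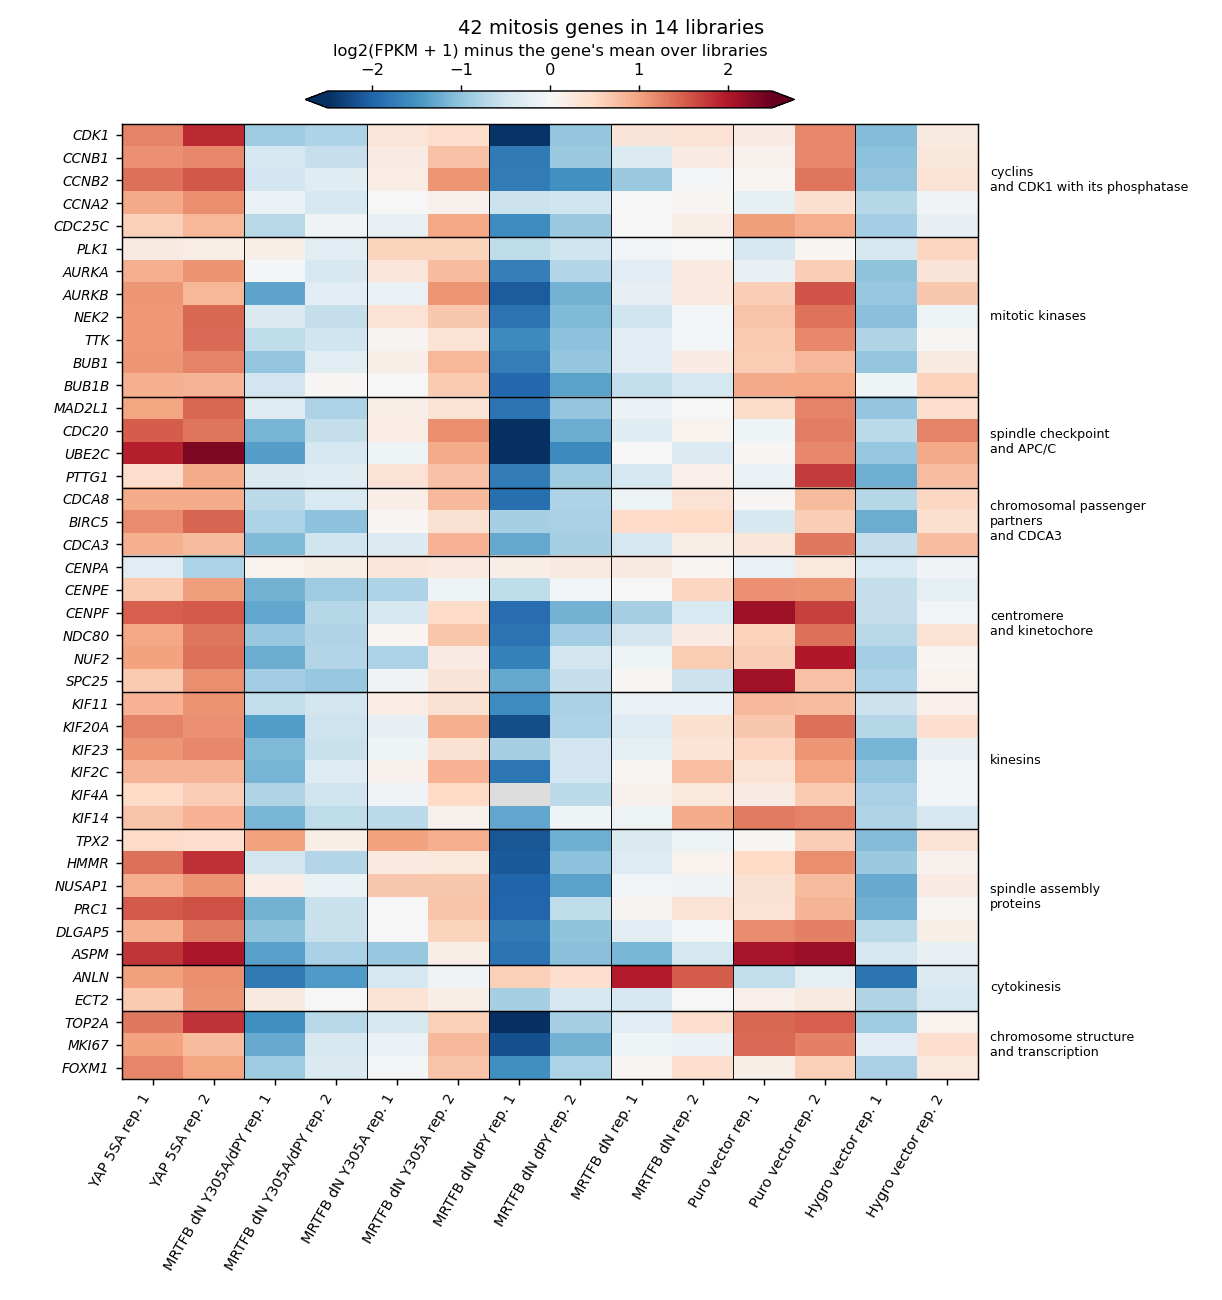
Difference of log2(FPKM + 1) from the gene's mean over the libraries for 42 mitosis genes (rows, grouped by role) in 14 libraries (columns); grey marks the missing KIF4A value. Most rows are high in YAP 5SA and the Puro vector and low in MRTFB dN dPY and MRTFB dN Y305A/dPY, while CENPA and ANLN follow patterns of their own.

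The replicates of a group differed in the same direction for most members. Replicate 1 was lower than replicate 2 for 30 of 42 members in YAP 5SA (median difference -0.20 in log2(FPKM + 1)), 30 in MRTFB dN Y305A/dPY (-0.28), 37 in MRTFB dN Y305A (-0.62), 40 of 41 in MRTFB dN dPY (-0.77), 36 in MRTFB dN (-0.40), 35 in the Puro vector (-0.57) and 42 in the Hygro vector (-1.01). The medians over all tested loci lay between -0.04 and 0.04. CDK1, the kinase that drives mitotic entry, stood at 1.91 and 7.15 FPKM in MRTFB dN dPY and at 6.56 and 17.6 FPKM in the Hygro vector, with replicate 1 the lower one in both groups.

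YAP 5SA was set against the Hygro vector to see how the mitosis genes stand with hyperactive YAP. Of the 42 members 16 rose and 0 fell, while 8.21% of all tested loci passed in either direction, 3.91% rose and 4.3% fell. The median member differed by 1.38 in log2(FPKM + 1), against -0.01 over all tested loci, and 41 of 42 lay above 0. Both YAP 5SA libraries exceeded both Hygro libraries for 39 members, as they did for 28.3% of all tested loci. Tests are limma's moderated test on log2(FPKM + 1) over 14 libraries, two-sided, with Benjamini-Hochberg adjustment over 13137 loci and a threshold of 0.05; the fold changes are on that scale, which understates changes of low genes.

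The largest change in YAP 5SA was that of ASPM, a spindle pole protein, at 14.8 and 17.8 FPKM with YAP 5SA, against 2.44 and 3.06 FPKM in the Hygro vector. It rose 4.61-fold (2.20 ± 0.40, adjusted p = 0.009). ANLN, the actin-binding scaffold of the cleavage furrow, stood at 51.3 and 56.8 FPKM with YAP 5SA, against 6.28 and 19.4 FPKM in the Hygro vector (2.17 ± 0.41, adjusted p = 0.011). PRC1, the bundler of antiparallel microtubules in the spindle midzone, stood at 32 and 33.3 FPKM with YAP 5SA, against 3.92 and 10.6 FPKM in the Hygro vector (2.15 ± 0.50, adjusted p = 0.026). In all 3 genes both YAP 5SA libraries lay clear of both Hygro libraries. By role, 5 of 6 spindle assembly genes rose (ASPM, PRC1, HMMR, NUSAP1 and DLGAP5, but not TPX2), as did both cytokinesis genes, with the RhoA exchange factor ECT2 at 14.1 and 19.9 FPKM with YAP 5SA, against 4.65 and 6.13 FPKM in the Hygro vector (1.48 ± 0.26, adjusted p = 0.0077).

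CDK1 rose, at 36.8 and 56.8 FPKM with YAP 5SA, against 6.56 and 17.6 FPKM in the Hygro vector (1.98 ± 0.53, adjusted p = 0.045). CCNA2, cyclin A2 of S and G2 phase, also rose, at 21.9 and 25.9 FPKM with YAP 5SA, against 6.31 and 10.1 FPKM in the Hygro vector (1.46 ± 0.28, adjusted p = 0.011). Cyclin B1 and B2, the partners of CDK1 in mitosis, did not pass: CCNB1 stood at 44 and 46.3 FPKM with YAP 5SA, against 9.08 and 23.9 FPKM in the Hygro vector (1.54 ± 0.48, adjusted p = 0.077). CCNB2 stood at 23 and 26.4 FPKM with YAP 5SA, against 3.71 and 11 FPKM in the Hygro vector (1.77 ± 0.52, adjusted p = 0.064). All 4 genes were higher in both YAP 5SA libraries than in either Hygro library. The calls in the other classes were NEK2 and TTK among 7 kinases, BIRC5 but neither CDCA8 nor CDCA3, CENPE and CENPF among 6 kinetochore genes and KIF11 and KIF23 among 6 kinesins, with none among the 4 checkpoint and APC/C genes or among TOP2A, MKI67 and FOXM1.

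UBE2C, the ubiquitin-conjugating enzyme of the anaphase promoting complex (APC/C), stood at 81.8 and 107 FPKM with YAP 5SA, against 10.2 and 40.7 FPKM in the Hygro vector (2.13 ± 0.65, adjusted p = 0.07). It was higher in both YAP 5SA libraries, with a difference as large as that of the called genes and a larger error. PLK1 and CENPA did not follow. PLK1, the Polo-like kinase, stood at 23.9 and 23 FPKM with YAP 5SA, against 15 and 29.7 FPKM in the Hygro vector (0.14 ± 0.31, adjusted p = 0.85). The locus of CENPA, the centromeric histone, stood at 28 and 19.2 FPKM with YAP 5SA, against 25.9 and 31.6 FPKM in the Hygro vector (-0.29 ± 0.25, adjusted p = 0.56), and was the only member below 0 here.

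The calls with YAP 5SA depend on single libraries and on the choice of vector. With YAP 5SA replicate 1 left out, the 16 calls became 1, and with its replicate 2 left out, 0. Deleting Hygro vector replicate 1 left 1 call and deleting its replicate 2 gave 23. No member passed in all 4 of these fits. ASPM, ANLN and PRC1 lost their calls without either YAP 5SA library (adjusted p between 0.053 and 0.17), and ASPM and PRC1 also without Hygro vector replicate 1 (adjusted p = 0.054 and 0.14). Without Hygro vector replicate 1 the difference was 1.43 for ANLN, 1.53 for PRC1 and 1.33 for CDK1, and without Hygro vector replicate 2 it was 2.92, 2.77 and 2.63. Set against the Puro vector, where 9.81% of all tested loci passed, YAP 5SA was higher in CCNA2 (0.98 ± 0.28, adjusted p = 0.049) and ANLN (1.51 ± 0.41, adjusted p = 0.045), and the median member differed by 0.21. The CCNA2 libraries were 21.9 and 25.9 FPKM with YAP 5SA, against 9.04 and 14.7 FPKM in the Puro vector, and those of ANLN 51.3 and 56.8 FPKM with YAP 5SA, against 15.9 and 21.1 FPKM in the Puro vector, without overlap in either gene. ASPM was lower in both YAP 5SA libraries than in the Puro vector, where it stood at 18.2 and 19.4 FPKM in the Puro vector, with a difference of -0.20.

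With the Puro vector as control, the median mitosis gene was lower in all 4 MRTFB groups. MRTFB dN dPY was lower in 36 of 42 members, while 35.8% of all tested loci passed in either direction and 14.8% were lower. MRTFB dN Y305A/dPY was lower in 24 (26.4% of all loci, 11.4% lower). MRTFB dN was lower in 10 and higher in 1 (36.8% of all loci, 15% lower and 21.8% higher), and MRTFB dN Y305A was lower in 4 (25.1% of all loci, 11% lower), a smaller share than that of all loci. The median member differed by -2.17 in MRTFB dN dPY, -1.41 in MRTFB dN Y305A/dPY, -0.88 in MRTFB dN and -0.42 in MRTFB dN Y305A, against 0.07 to 0.10 over all loci. These 4 comparisons share their control libraries, so they are not independent of each other.

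ASPM and CENPF, a large kinetochore protein of G2 and M phase, fell in all 4 MRTFB groups. ASPM stood at 0.789 and 1.61 FPKM in MRTFB dN Y305A/dPY, 1.4 and 4.17 FPKM in MRTFB dN Y305A, 0.281 and 1.22 FPKM in MRTFB dN dPY and 1.09 and 2.4 FPKM in MRTFB dN, against 18.2 and 19.4 FPKM in the Puro vector. CENPF stood at 1.33 and 2.51 FPKM in MRTFB dN Y305A/dPY, 3.35 and 6.98 FPKM in MRTFB dN Y305A, 0.532 and 1.53 FPKM in MRTFB dN dPY and 2.2 and 3.39 FPKM in MRTFB dN, against 23.7 and 17.7 FPKM in the Puro vector. No MRTFB library of either gene reached the Puro vector libraries. The changes of ASPM were -3.20 ± 0.40, adjusted p = 0.0018 in MRTFB dN Y305A/dPY, -2.49 ± 0.40, adjusted p = 0.0045 in MRTFB dN Y305A, -3.55 ± 0.40, adjusted p = 0.00012 in MRTFB dN dPY and -2.89 ± 0.40, adjusted p = 0.00046 in MRTFB dN. Those of CENPF were -2.91 ± 0.37, adjusted p = 0.0018 in MRTFB dN Y305A/dPY, -1.87 ± 0.37, adjusted p = 0.0088 in MRTFB dN Y305A, -3.45 ± 0.37, adjusted p = 8.5e-05 in MRTFB dN dPY and -2.52 ± 0.37, adjusted p = 0.00071 in MRTFB dN. In MRTFB dN Y305A the call of ASPM was lost without MRTFB dN Y305A replicate 1 (adjusted p = 0.058), and that of CENPF without MRTFB dN Y305A replicate 1 (adjusted p = 0.094) or Puro vector replicate 1 (adjusted p = 0.054).

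By class, all 4 checkpoint and APC/C genes, all 6 spindle assembly genes and TOP2A, MKI67 and FOXM1 fell, as did 4 of 5 of CDK1 with its cyclins and phosphatase, 6 of 7 kinases, 5 of 6 kinetochore genes, 5 of 6 kinesins, CDCA8 and CDCA3 but not BIRC5, and 1 of 2 cytokinesis genes in MRTFB dN dPY. TOP2A, the topoisomerase that untangles sister chromatids, stood at 0.884 and 5.23 FPKM in MRTFB dN dPY, against 28.8 and 29.9 FPKM in the Puro vector, and fell 8.85-fold (-3.15 ± 0.57, adjusted p = 0.0023). The difference was -2.28 without MRTFB dN dPY replicate 1 and -4.01 without MRTFB dN dPY replicate 2, and the call held in both. MKI67, the gene of the proliferation antigen Ki-67, stood at 0.505 and 2.03 FPKM in MRTFB dN dPY, against 17.3 and 15.3 FPKM in the Puro vector (-3.02 ± 0.43, adjusted p = 0.00053). Both genes were far below the Puro vector in both libraries, although MRTFB dN dPY replicate 1 was the lower one. The 6 members that did not pass were KIF4A (-1.08, adjusted p = 0.052), BIRC5 (-0.94, adjusted p = 0.14), CCNA2 (-0.60, adjusted p = 0.11), PLK1 (-0.40, adjusted p = 0.33), CENPA (0.14, adjusted p = 0.70) and ANLN (0.93, adjusted p = 0.10).

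In MRTFB dN Y305A/dPY the calls lay mostly among kinases (5 of 7), kinetochore genes (5 of 6), kinesins (5 of 6) and spindle assembly genes (4 of 6). TOP2A stood at 2.8 and 5.83 FPKM there, against the Puro vector values above (-2.57 ± 0.57, adjusted p = 0.011), a call lost without MRTFB dN Y305A/dPY replicate 1 (adjusted p = 0.10) or Puro vector replicate 1 (adjusted p = 0.051). CENPE, the kinetochore motor that moves chromosomes to the spindle equator, stood at 0.444 and 0.766 FPKM in MRTFB dN Y305A/dPY and 0.92 and 2.03 FPKM in MRTFB dN Y305A, against 6.31 and 6.2 FPKM in the Puro vector. It fell in both groups (-2.18 ± 0.31, adjusted p = 0.0028 in MRTFB dN Y305A/dPY and -1.59 ± 0.31, adjusted p = 0.0084 in MRTFB dN Y305A, the second lost without MRTFB dN Y305A replicate 1 at adjusted p = 0.091). The fourth call in MRTFB dN Y305A was KIF14, a kinesin of the midbody, at 0.898 and 2.25 FPKM in MRTFB dN Y305A, against 6.43 and 6.07 FPKM in the Puro vector (-1.54 ± 0.44, adjusted p = 0.029). That call was lost without MRTFB dN Y305A replicate 1 (adjusted p = 0.22), Puro vector replicate 1 (adjusted p = 0.12) or Puro vector replicate 2 (adjusted p = 0.058), and against the Hygro vector KIF14 differed by 0.31.

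In MRTFB dN, SPC25, a subunit of the NDC80 complex that holds microtubules at the kinetochore, stood at 3.52 and 2.04 FPKM in MRTFB dN, against 17.8 and 6.35 FPKM in the Puro vector (-1.67 ± 0.45, adjusted p = 0.016). Its level in Puro vector replicate 1 was far above every other library, and the call was lost without that library (-0.99, adjusted p = 0.13) and without MRTFB dN replicate 2 (adjusted p = 0.096), while without Puro vector replicate 2 the difference was -2.35. ANLN was the exception in the other direction: it stood at 101 and 72.9 FPKM in MRTFB dN, against 15.9 and 21.1 FPKM in the Puro vector, and rose 4.49-fold (2.17 ± 0.41, adjusted p = 0.0029). Both MRTFB dN libraries exceeded every library of every other group, and the call held without each of the 4 libraries in turn.

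Single libraries move these counts. For MRTFB dN dPY the 36 calls became 18 when its replicate 1 was left out and 23 when Puro vector replicate 2 was, and 18 members passed in each of the 4 fits that leave out a library. For MRTFB dN Y305A/dPY the 24 became 3 without MRTFB dN Y305A/dPY replicate 1, 13 without Puro vector replicate 1 and 11 without Puro vector replicate 2. For MRTFB dN the 11 became 4 without MRTFB dN replicate 1, 7 without MRTFB dN replicate 2 and 7 without Puro vector replicate 2. For MRTFB dN Y305A the 4 became 0 without MRTFB dN Y305A replicate 1 and 2 without Puro vector replicate 1.

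Against the Hygro vector the MRTFB groups gave other values. MRTFB dN dPY was lower in 7 members and higher in 1, with a median of -0.98. This count is near the share of all tested loci that passed (20.5%), and the share that was lower is not given. The lower ones were CDC20 (-2.26), UBE2C (-2.09), BUB1B (-1.89), MKI67 (-1.76), CENPF (-1.21), DLGAP5 (-1.13) and KIF11 (-0.98), and the higher one was ANLN (1.59). MRTFB dN was higher in ANLN alone (2.83 ± 0.41, adjusted p = 0.00072; 19.1% of all loci passed), with a median of 0.30. MRTFB dN Y305A (2.6% of all loci) and MRTFB dN Y305A/dPY (2.69%) had 0 calls by limma among the members, with medians of 0.58 and -0.32. The 7 lower members of MRTFB dN dPY passed against both vectors, while the lower calls of the other 3 MRTFB groups were made against the Puro vector only.

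**Figure D3:**
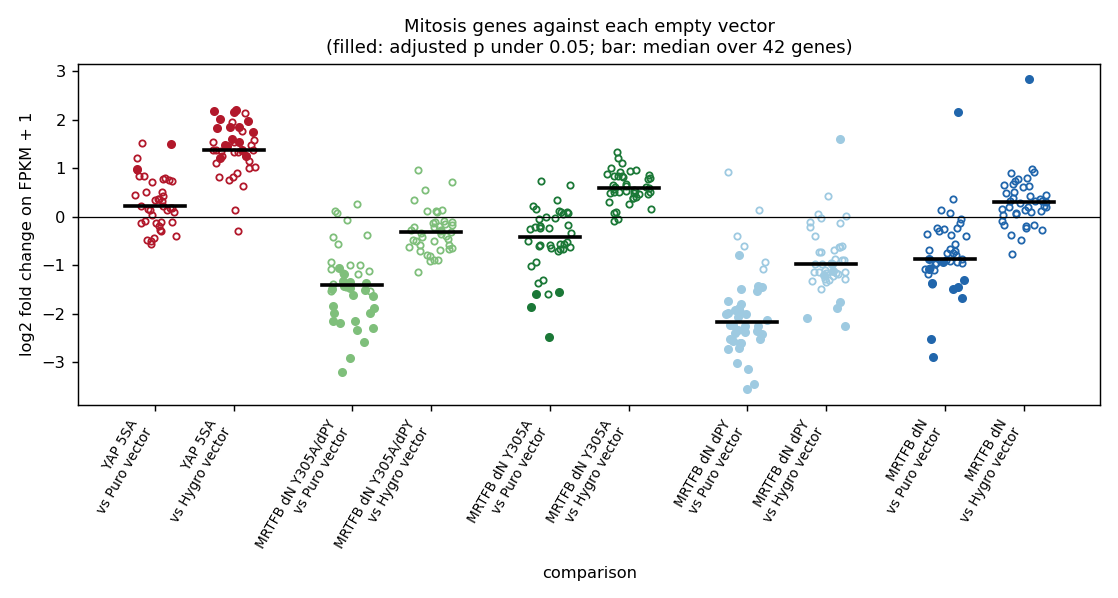
Fold change of each mitosis gene in log2(FPKM + 1) for YAP 5SA and the 4 MRTFB groups against each empty vector, 1 point per gene; filled points have an adjusted p under 0.05 and the bar is the median. Medians lie lower against the Puro vector than against the Hygro vector in every group, and MRTFB dN dPY is lowest against both (-2.17 and -0.98).

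The vectors themselves differed in the mitosis genes. The Puro vector was higher than the Hygro vector in 11 of 42 members and lower in 0 (14.2% of all tested loci passed, 5.68% higher and 8.53% lower), with a median of 1.11, against -0.07 over all loci. ASPM stood at 18.2 and 19.4 FPKM in the Puro vector, against 2.44 and 3.06 FPKM in the Hygro vector (2.40 ± 0.40, adjusted p = 0.0094). CENPF stood at 23.7 and 17.7 FPKM in the Puro vector, against 2.79 and 4.46 FPKM in the Hygro vector (2.24 ± 0.37, adjusted p = 0.0094). KIF14 stood at 6.43 and 6.07 FPKM in the Puro vector, against 0.795 and 1.24 FPKM in the Hygro vector (1.85 ± 0.44, adjusted p = 0.025). In each gene both Puro libraries exceeded both Hygro libraries several-fold. The calls of ASPM and CENPF held without each library in turn, while that of KIF14 was lost without Puro vector replicate 1 (adjusted p = 0.082) or either Hygro library (adjusted p = 0.078 and 0.076). The count of 11 became 7 without Puro vector replicate 1, 6 without Puro vector replicate 2 and 2 without Hygro vector replicate 1.

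The comparison that needs no vector is that of MRTFB forms with and without the PY deletion, which ends the binding of YAP. The mitosis genes were lower with the deletion in both SRF backgrounds. MRTFB dN dPY was lower than MRTFB dN in 41 of 42 members by fitted difference, with a median of -1.24. MRTFB dN Y305A/dPY was lower than MRTFB dN Y305A in 42 of 42, with a median of -0.97; over all tested loci the medians were -0.01 and 0.00. In this fit, which has no replicate block, no single member passed the threshold in either comparison, while 0.236% and 0.0152% of all tested loci did. Averaged over both backgrounds the median member differed by -1.08, 42 of 42 lay below 0 and again 0 passed, with 0.0228% of all loci called. At an unadjusted p under 0.05 by limma 30 members were lower in the first comparison, 19 in the second and 39 in the average, which 1.98%, 1.39% and 2.79% of all tested loci were. The effect of the deletion did not pass as different between the backgrounds for any member (0 of 42, and 0 at an unadjusted p under 0.05, with 0.0228% of all loci called). Replicate differences correlated between 0.297 and 0.640 among the MRTFB groups. A fit on the 8 MRTFB libraries with a replicate block, chosen after seeing the data, called some members as lower, with smaller errors. Those calls are in the part on processing, and the errors and adjusted p of single genes below are without a block.

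Read by replicates of the same number, the direction was nearly uniform. Among the 41 members with all 4 pairs, 39 were lower with the deletion in every pair, as were 16.9% of the 11321 tested loci with all pairs. In contrast 0 members were higher in every pair, as were 14.2% of those loci. The exceptions were CENPA, lower in 3 pairs, and TPX2, whose value in the replicate 1 pair of the Y305A background was level. KIF4A, without a value in 1 library, was lower in its 3 pairs. The median difference over members was -1.43 and -1.05 in the SRF-binding pairs and -0.75 and -1.12 in the Y305A pairs. The labels number the replicates without saying what a number shares. The members also moved together between libraries, so their counts are not independent observations. Within the Hygro vector group alone, replicate 1 was lower than replicate 2 for 42 of 42 members, with a median difference of -1.01.

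**Figure D4:**
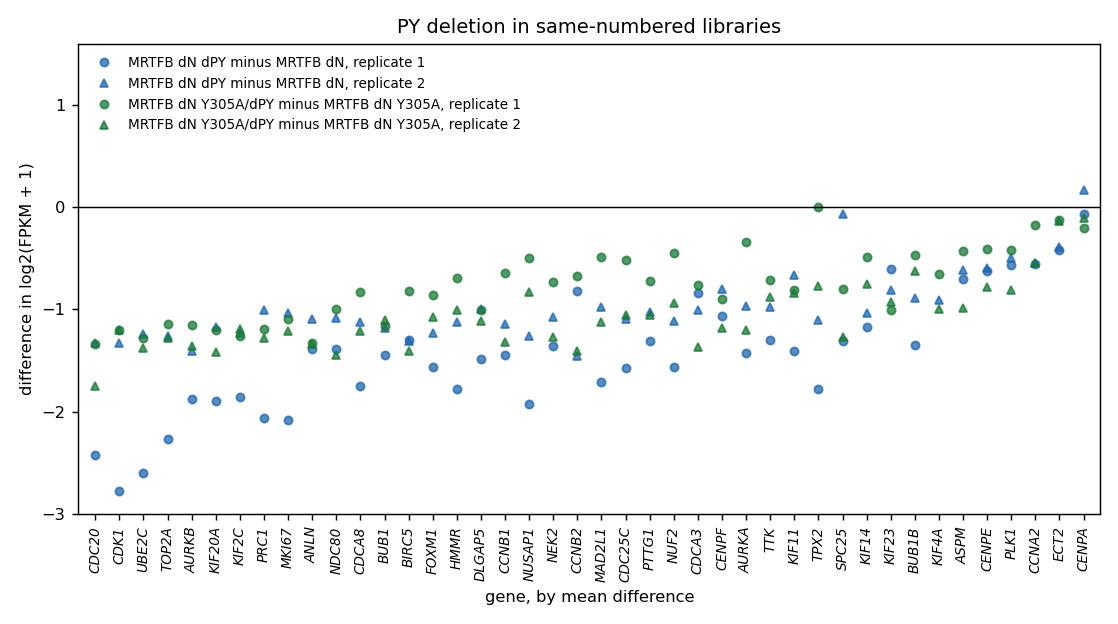
Difference in log2(FPKM + 1) between the forms with and without the PY deletion for each mitosis gene in each of the 4 pairs of libraries with the same replicate number, 1 point per gene and pair. Medians lie between -1.43 and -0.75, and nearly all points lie below 0.

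The 4 libraries with the deletion separated from the 4 without it in 23 of 41 members, as they did in 1.1% of the 11321 loci. They were CDK1, CCNB1 and CCNA2; AURKB and TTK; MAD2L1, CDC20 and UBE2C; BIRC5, CDCA8 and CDCA3; NDC80 and SPC25; KIF11, KIF20A, KIF23 and KIF2C; HMMR, PRC1 and DLGAP5; and TOP2A, MKI67 and FOXM1. Thus every class had such members except cytokinesis. MKL2 did not separate in this way: it was 286 and 171 FPKM in MRTFB dN dPY, against 299.5 and 165 FPKM in MRTFB dN, and 610.1 and 343 FPKM in MRTFB dN Y305A/dPY, against 404 and 294 FPKM in MRTFB dN Y305A. The part of the construct's level in the difference was not tested.

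Among CDK1 and its regulators, CDK1 stood at 1.91 and 7.15 FPKM in MRTFB dN dPY, against 18.9 and 19.5 FPKM in MRTFB dN. Without SRF binding CDK1 stood at 7.63 and 8.39 FPKM in MRTFB dN Y305A/dPY, against 18.8 and 20.5 FPKM in MRTFB dN Y305A. The highest library with the deletion held 8.39 FPKM and the lowest without it 18.8 FPKM. The average difference over both backgrounds was -1.63 ± 0.37, adjusted p = 0.31, a 3.09-fold lower level. CCNB1 stood at 4.98 and 9.77 FPKM in MRTFB dN dPY, against 15.3 and 22.8 FPKM in MRTFB dN, and at 14.1 and 12.7 FPKM in MRTFB dN Y305A/dPY, against 22.5 and 33.2 FPKM in MRTFB dN Y305A (average -1.14 ± 0.34, adjusted p = 0.56). CCNB2 stood at 1.77 and 2.26 FPKM in MRTFB dN dPY, against 3.89 and 7.95 FPKM in MRTFB dN, and at 5.63 and 6.58 FPKM in MRTFB dN Y305A/dPY, against 9.6 and 19.1 FPKM in MRTFB dN Y305A (average -1.09 ± 0.37, adjusted p = 0.77). CCNB1 did not overlap between forms with and without the deletion, and CCNB2 overlapped across the backgrounds but not within one. CCNA2 had the smallest average difference in the class, at 7.21 and 7.4 FPKM in MRTFB dN dPY, against 11 and 11.3 FPKM in MRTFB dN, and 9.69 and 7.83 FPKM in MRTFB dN Y305A/dPY, against 11.1 and 11.9 FPKM in MRTFB dN Y305A (average -0.45 ± 0.20, adjusted p = 1). CDC25C, the phosphatase that activates CDK1 at mitotic entry, stood at 0.267 and 0.979 FPKM in MRTFB dN dPY, against 2.77 and 3.22 FPKM in MRTFB dN, and 1.34 and 2.53 FPKM in MRTFB dN Y305A/dPY, against 2.34 and 6.35 FPKM in MRTFB dN Y305A, where the libraries overlapped (average -1.06 ± 0.28, adjusted p = 0.43).

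The 7 mitotic kinases had a median average difference of -0.98. AURKB, the catalytic subunit of the chromosomal passenger complex, stood at 0.827 and 2.42 FPKM in MRTFB dN dPY, against 5.73 and 8.07 FPKM in MRTFB dN, and at 2.1 and 5.46 FPKM in MRTFB dN Y305A/dPY, against 5.88 and 15.6 FPKM in MRTFB dN Y305A. AURKA, the kinase of centrosome maturation, stood at 2.99 and 6.83 FPKM in MRTFB dN dPY, against 9.74 and 14.3 FPKM in MRTFB dN, and at 11.7 and 8.83 FPKM in MRTFB dN Y305A/dPY, against 15.1 and 21.6 FPKM in MRTFB dN Y305A. BUB1, which places the checkpoint at kinetochores, stood at 0.686 and 1.86 FPKM in MRTFB dN dPY, against 3.6 and 5.48 FPKM in MRTFB dN, and at 1.81 and 3.62 FPKM in MRTFB dN Y305A/dPY, against 5.28 and 8.91 FPKM in MRTFB dN Y305A. In these 3 genes the forms with the deletion lay below their partners within each background, and only AURKB separated across both. The average differences were -1.45 ± 0.43, adjusted p = 0.56 for AURKB, -0.98 ± 0.33, adjusted p = 0.76 for AURKA and -1.22 ± 0.30, adjusted p = 0.39 for BUB1. PLK1 differed less, at 12.8 and 14 FPKM in MRTFB dN dPY, against 19.4 and 20.2 FPKM in MRTFB dN. Without SRF binding PLK1 stood at 22.6 and 16.8 FPKM in MRTFB dN Y305A/dPY, against 30.5 and 30.2 FPKM in MRTFB dN Y305A (average -0.57 ± 0.22, adjusted p = 0.91). PLK1 is measured together with DCTN5, and the part of that gene in the value was not tested.

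The checkpoint and APC/C genes had a median of -1.35, the second lowest of the classes. CDC20, the activator with which APC/C starts anaphase, stood at 1.59 and 6.29 FPKM in MRTFB dN dPY, against 12.9 and 17.4 FPKM in MRTFB dN. Without SRF binding CDC20 stood at 6.7 and 10.4 FPKM in MRTFB dN Y305A/dPY, against 18.4 and 37.4 FPKM in MRTFB dN Y305A. It had the most negative average of all members (average -1.71 ± 0.48, adjusted p = 0.51). UBE2C stood at 2.58 and 6.16 FPKM in MRTFB dN dPY, against 20.7 and 15.9 FPKM in MRTFB dN, and at 7.23 and 14.8 FPKM in MRTFB dN Y305A/dPY, against 19 and 40.0 FPKM in MRTFB dN Y305A (average -1.62 ± 0.46, adjusted p = 0.51). Neither gene overlapped between forms with and without the deletion. PTTG1, the gene of securin, which restrains separase until anaphase, stood at 11.8 and 22.1 FPKM in MRTFB dN dPY, against 30.7 and 46 FPKM in MRTFB dN. Without SRF binding PTTG1 stood at 32.6 and 33.6 FPKM in MRTFB dN Y305A/dPY, against 54.3 and 70.7 FPKM in MRTFB dN Y305A, with overlap across the backgrounds (average -1.03 ± 0.48, adjusted p = 1).

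Of the passenger genes, BIRC5, the gene of survivin, stood at 3.14 and 3.17 FPKM in MRTFB dN dPY, against 9.21 and 9.36 FPKM in MRTFB dN. Without SRF binding BIRC5 stood at 3.32 and 2.64 FPKM in MRTFB dN Y305A/dPY, against 6.65 and 8.65 FPKM in MRTFB dN Y305A. Its average difference was -1.21 ± 0.33, adjusted p = 0.49, and that of its partner borealin, encoded by CDCA8, was -1.23 ± 0.33, adjusted p = 0.49. At the kinetochore the average difference was -0.99 ± 0.26, adjusted p = 0.46 for CENPF and -1.23 ± 0.32, adjusted p = 0.43 for NDC80, a microtubule-binding subunit of the complex named after it. The CENPA locus did not follow. It stood at 37.8 and 39.4 FPKM in MRTFB dN dPY, against 39.5 and 35 FPKM in MRTFB dN. Without SRF binding CENPA stood at 36 and 37.5 FPKM in MRTFB dN Y305A/dPY, against 41.7 and 40.5 FPKM in MRTFB dN Y305A (average -0.05 ± 0.18, adjusted p = 1). Its range over all 14 libraries, 19.2 to 41.7 FPKM, was narrow beside that of the other kinetochore genes, and the part of SLC35F6, which shares the locus, was not tested.

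Among the motors and spindle proteins KIF20A, the kinesin that carries passenger proteins to the midzone, stood at 0.54 and 3.18 FPKM in MRTFB dN dPY, against 4.72 and 8.43 FPKM in MRTFB dN. Without SRF binding KIF20A stood at 1.7 and 3.96 FPKM in MRTFB dN Y305A/dPY, against 5.23 and 12.3 FPKM in MRTFB dN Y305A (average -1.42 ± 0.40, adjusted p = 0.52). KIF23, the kinesin of the centralspindlin complex, stood at 5.99 and 7.86 FPKM in MRTFB dN dPY, against 9.61 and 14.6 FPKM in MRTFB dN, and at 4.73 and 7.44 FPKM in MRTFB dN Y305A/dPY, against 10.5 and 15 FPKM in MRTFB dN Y305A (average -0.84 ± 0.26, adjusted p = 0.66). HMMR, a spindle and centrosome protein, stood at 0.45 and 2.04 FPKM in MRTFB dN dPY, against 3.99 and 5.6 FPKM in MRTFB dN, and at 3.55 and 2.73 FPKM in MRTFB dN Y305A/dPY, against 6.37 and 6.49 FPKM in MRTFB dN Y305A (average -1.15 ± 0.30, adjusted p = 0.42). All 3 were lower in each of the 4 deletion libraries than in any library without the deletion. The lowest class median, -1.36, was that of TOP2A, MKI67 and FOXM1. TOP2A stood at 0.884 and 5.23 FPKM in MRTFB dN dPY, against 8.07 and 14 FPKM in MRTFB dN. Without SRF binding TOP2A stood at 2.8 and 5.83 FPKM in MRTFB dN Y305A/dPY, against 7.37 and 15.6 FPKM in MRTFB dN Y305A. MKI67 stood at 0.505 and 2.03 FPKM in MRTFB dN dPY, against 5.38 and 5.21 FPKM in MRTFB dN, and at 1.88 and 4.22 FPKM in MRTFB dN Y305A/dPY, against 5.15 and 11.1 FPKM in MRTFB dN Y305A. FOXM1, the transcription factor of many of these genes, stood at 0.847 and 2.06 FPKM in MRTFB dN dPY, against 4.48 and 6.21 FPKM in MRTFB dN, and at 1.88 and 3.17 FPKM in MRTFB dN Y305A/dPY, against 4.22 and 7.78 FPKM in MRTFB dN Y305A. In none of the 3 did the libraries with and without the deletion overlap, and the average differences were -1.49 ± 0.41, adjusted p = 0.49 for TOP2A, -1.36 ± 0.30, adjusted p = 0.28 for MKI67 and -1.18 ± 0.29, adjusted p = 0.39 for FOXM1.

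Loss of SRF binding was compared in the forms with and without YAP binding. MRTFB dN Y305A differed from MRTFB dN in 1 member, ANLN, while 16.7% of all tested loci passed; the median member differed by 0.39 and 37 of 42 lay above 0. MRTFB dN Y305A/dPY was higher than MRTFB dN dPY in TPX2, NUSAP1 and BUB1B and lower in ANLN, while 17.4% of all loci passed (6.71% higher, 10.6% lower); the median was 0.63. ANLN stood at 18.2 and 23.4 FPKM in MRTFB dN Y305A, against 101 and 72.9 FPKM in MRTFB dN (-2.0 ± 0.41, adjusted p = 0.0066). It stood at 6.61 and 8.67 FPKM in MRTFB dN Y305A/dPY, against 38.1 and 33.7 FPKM in MRTFB dN dPY (-2.10 ± 0.41, adjusted p = 0.005). In both pairs of groups the libraries were far apart. The call without YAP binding held without each of the 4 libraries in turn, and that with YAP binding was lost without MRTFB dN replicate 1 (adjusted p = 0.064) or MRTFB dN Y305A replicate 1 (adjusted p = 0.052).

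ANLN was also lower with the PY deletion, at 38.1 and 33.7 FPKM in MRTFB dN dPY, against 101 and 72.9 FPKM in MRTFB dN. Without SRF binding ANLN stood at 6.61 and 8.67 FPKM in MRTFB dN Y305A/dPY, against 18.2 and 23.4 FPKM in MRTFB dN Y305A (average -1.29 ± 0.29, adjusted p = 0.28). Its libraries in both SRF-binding forms lay above those of both vectors. TPX2, the activator of Aurora A on spindle microtubules, stood at 42.1 and 22.5 FPKM in MRTFB dN Y305A/dPY, against 3.87 and 8.13 FPKM in MRTFB dN dPY (2.26 ± 0.47, adjusted p = 0.0072). NUSAP1, a microtubule-bundling protein, stood at 10.9 and 8.4 FPKM in MRTFB dN Y305A/dPY, against 1.62 and 3.14 FPKM in MRTFB dN dPY (1.68 ± 0.41, adjusted p = 0.017), and BUB1B, the checkpoint kinase-like protein BUBR1, at 4.46 and 6.78 FPKM in MRTFB dN Y305A/dPY, against 0.952 and 2.02 FPKM in MRTFB dN dPY (1.42 ± 0.33, adjusted p = 0.012). None of the 3 overlapped between the groups. The 4 calls became 1 without MRTFB dN dPY replicate 1 and 2 without MRTFB dN Y305A/dPY replicate 1; TPX2 and NUSAP1 lost their calls in both cases (adjusted p between 0.065 and 0.13), and BUB1B without MRTFB dN dPY replicate 1 or MRTFB dN Y305A/dPY replicate 2 (adjusted p = 0.11 and 0.096). MKL2 was higher in the Y305A/dPY libraries than in the dPY libraries of the same number, and its part was not tested.

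**Figure D5:**
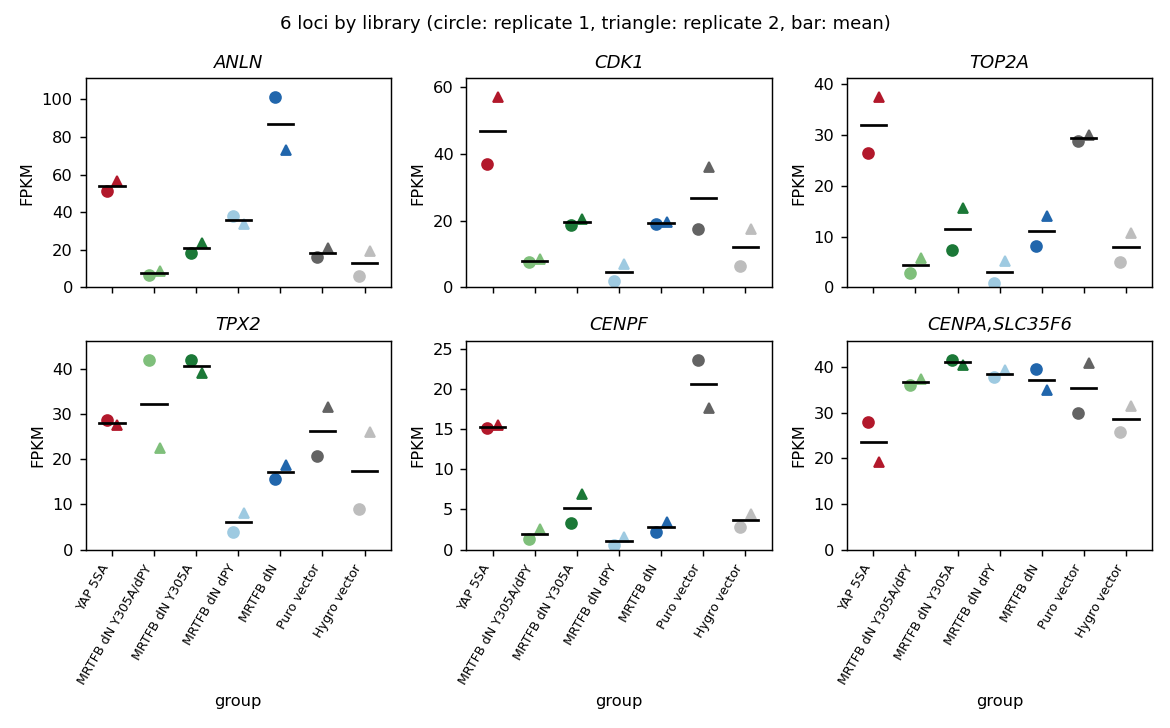
FPKM of ANLN, CDK1, TOP2A, TPX2, CENPF and the CENPA,SLC35F6 locus in each of the 14 libraries on linear axes from 0, 1 point per library and a bar at the group mean. ANLN peaks in MRTFB dN (101 and 72.9 FPKM), CDK1 in YAP 5SA and CENPF in the Puro vector, while the CENPA locus stays between 19.2 and 41.7 FPKM.

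Other cell cycle genes were read from 4 further lists, taken whole. Of all tested loci 3.91% rose in YAP 5SA against the Hygro vector. In MRTFB dN dPY against the Puro vector 21% rose and 14.8% fell. With the other vector as control 9.81% passed in YAP 5SA and 20.5% in MRTFB dN dPY. Over the PY deletion 16.9% of the loci with all pairs were lower in all 4 pairs. Of the 48 other G2/M genes 18 rose in YAP 5SA against the Hygro vector (median 1.19), and 38 fell and 1 rose in MRTFB dN dPY against the Puro vector (median -1.61). With the other vector as control, 1 rose and 1 fell in YAP 5SA (median 0.27), and 6 fell and 1 rose in MRTFB dN dPY (median -0.67). All 48 lay below 0 in the average over the PY deletion (median -0.69), where 40 of 43 were lower in all 4 pairs. Of 30 DNA replication and G1/S genes 7 fell in MRTFB dN dPY against the Puro vector (median -0.65). Against the Hygro vector 4 fell (median -0.76), a smaller share than that of all loci that passed. All 30 lay below 0 over the PY deletion (median -0.75), with 21 of 26 lower in all 4 pairs. RRM2, the small subunit of ribonucleotide reductase, stood at 2 and 4.2 FPKM in MRTFB dN dPY, against 25.9 and 14 FPKM in MRTFB dN. Without SRF binding RRM2 stood at 9.89 and 11.6 FPKM in MRTFB dN Y305A/dPY, against 23 and 31.7 FPKM in MRTFB dN Y305A (average -1.80 ± 0.31, adjusted p = 0.13). The 24 genes of the APC/C, cohesin and checkpoint core, which are not restricted to mitosis, had a median of -0.03 over the PY deletion and 3 of 19 lower in all 4 pairs. In MRTFB dN dPY against the Puro vector 2 of them rose, CDC23 and FZR1, and 0 fell, a smaller share than that of all loci.

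Of 24 regulators of the G2/M program 9 passed in MRTFB dN dPY against the Puro vector, near the share of all tested loci (35.8%). CDKN1A, E2F8, LIN52 and NFYC rose (21% of all loci). E2F4, E2F7, RBL1 and RBL2 were among the 5 that fell (14.8% of all loci). The median of the 24 over the PY deletion was -0.03. CDKN1A, the CDK inhibitor p21, stood at 185 and 190.5 FPKM in YAP 5SA, 285 and 216 FPKM in MRTFB dN Y305A/dPY, 294 and 166 FPKM in MRTFB dN Y305A, 1146 and 665 FPKM in MRTFB dN dPY and 610.1 and 497 FPKM in MRTFB dN, against 61.7 and 43.7 FPKM in the Puro vector and 316 and 353 FPKM in the Hygro vector. It was highest in MRTFB dN dPY, where most mitosis genes were lowest, and lowest in the Puro vector. In the Y305A background its libraries with and without the deletion overlapped. CDKN1A was lower in MRTFB dN Y305A/dPY than in MRTFB dN and the Hygro vector, where the mitosis genes had higher medians (2.82 and 2.68, against 2.11). It rose in MRTFB dN dPY against the Puro vector (4.05 ± 0.39, adjusted p = 3.9e-05) and was higher, without passing, against MRTFB dN (0.66 ± 0.39, adjusted p = 1). MYBL2 stood at 2.17 and 5.4 FPKM in MRTFB dN dPY, against 17.9 and 18.2 FPKM in MRTFB dN. Without SRF binding MYBL2 stood at 3.57 and 4.65 FPKM in MRTFB dN Y305A/dPY, against 10.1 and 15.4 FPKM in MRTFB dN Y305A. All 4 libraries with the deletion were lower than all 4 without it (average -1.75 ± 0.51, adjusted p = 0.54). Of the 24 regulators only 1, MYBL2, had this pattern, as did 1.1% of the 11321 loci. MYBL2 was chosen after its values were seen. The part of these regulators in the levels of the mitosis genes was not tested.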

How the data were processed

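Poly(A)-selected, strand-specific RNA sequencing of 14 MCF-10A libraries (7 groups of 2) was read from 1 deposited table of FPKM values. Per the submitters' processing notes the authors used Bowtie, TopHat, Cufflinks and Cuffnorm with hg19; versions, annotation and scaling are not given in the sources used here. FPKM keeps no counts, so the number of reads per library is unknown and no counting interval is given. Relative depth was estimated from the most common ratio between values under 0.5 FPKM in a library and in Hygro vector replicate 1. Precision rests on 2 libraries per group.

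Values were taken as log2(FPKM + 1), and the 13137 named loci that reached 1 FPKM in 2 or more libraries were tested. A limma (3.58.1, R 4.3.3) model with 1 mean per group was fitted to all 14 libraries (7 residual degrees of freedom, moderated with an intensity trend), and p-values were two-sided and Benjamini-Hochberg adjusted over all 13137 loci with a threshold of 0.05. In MRTFB dN dPY replicate 1, 5069 loci that were all at 0 over whole chromosome stretches were treated as missing (1816 of those tested). A pattern over libraries counts loci whose groups do not overlap. Tables and promoter motifs were made in pandas 2.3.3 and numpy 2.4.6 (Python 3.11.15), and figures in matplotlib 3.10.9. The fit was also run on simulated data with known changes for the PY deletion over both backgrounds. Their noise was independent between loci, so they lack the replicate shifts that most members share here.

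The members and gene lists were chosen with earlier results of these data known. Any member could be named; per-library values were given for a list of well-known members, in each comparison for the 3 called members with the largest change in each direction and for each called member against the median, and from the other lists for up to 4 called genes in each direction. RRM2 and MYBL2 were chosen after their values were seen. Alternatives were another pseudocount, no filter, another scaling, a replicate block, other sets of libraries, the other vector and leaving out each library. Some genes of the other lists are not reported here.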

Additional observations from a re-analysis of the deposited data

How the results depend on the processing

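The counts of mitosis genes past the threshold depend on how the spread is estimated and on the vector. Apart from the PY deletion over both backgrounds in the last fit, no share of all tested loci stands beside the counts in this part. They show how far the counts move and no change particular to the members. With a pseudocount of 0.1 they were 10 for YAP 5SA against the Hygro vector, 7 for MRTFB dN against the Puro vector and 7 for the Puro against the Hygro vector. Without a filter they were 9 for YAP 5SA, 15 for MRTFB dN Y305A/dPY and 5 for the Puro against the Hygro vector. Scaling by the median of ratios gave 7 for MRTFB dN Y305A, where it moved the median of all loci to -0.03 from 0.10. Fitted on the compared groups only, the counts were 1 for YAP 5SA, 6 for MRTFB dN, 17 for MRTFB dN dPY, 0 for MRTFB dN Y305A, 0 for MRTFB dN Y305A/dPY, 2 for MRTFB dN Y305A against MRTFB dN, 2 for MRTFB dN Y305A/dPY against MRTFB dN dPY and 0 for the Puro against the Hygro vector. Against the other vector they were 2 for YAP 5SA, 1 for MRTFB dN, 8 for MRTFB dN dPY, 0 for MRTFB dN Y305A and 0 for MRTFB dN Y305A/dPY, and against the mean of both vectors 4 for YAP 5SA, 4 for MRTFB dN, 1 for MRTFB dN Y305A and 6 for MRTFB dN Y305A/dPY. Against the other vector 16 of the 91 called differences turned their sign: 4 of 16 for YAP 5SA, among them ASPM (-0.20), 6 of 11 for MRTFB dN, among them SPC25 (0.093), 2 of 36 for MRTFB dN dPY, 2 of 4 for MRTFB dN Y305A, among them CENPF (0.37), and 2 of 24 for MRTFB dN Y305A/dPY. The cause of these shifts was not tested.

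Leaving out 1 library gave 0 to 23 members for YAP 5SA, 4 to 8 for MRTFB dN, 18 to 36 for MRTFB dN dPY, 0 to 4 for MRTFB dN Y305A, 3 to 18 for MRTFB dN Y305A/dPY, 0 to 1 for MRTFB dN Y305A against MRTFB dN, 1 to 4 for MRTFB dN Y305A/dPY against MRTFB dN dPY and, for the Puro against the Hygro vector, 2 to 9; the comparisons of the PY deletion had 0 throughout. Of 325 alternatives for 24 single results, 261 kept direction and call, 61 lost the call and 3 turned sign. These 24 passed in the main fit and were picked for the largest change or a sign against the median. How often they held does not stand for the other called members.

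The labels do not say what a replicate number shares. Differences between replicates 1 and 2 correlated between 0.297 and 0.640 across loci among the 4 MRTFB groups and between -0.151 and 0.243 in the other pairs of groups. A replicate block over all 14 libraries gave 31 members for YAP 5SA, 23 for MRTFB dN, 8 for MRTFB dN Y305A, 4 for MRTFB dN Y305A against MRTFB dN, 7 for MRTFB dN Y305A/dPY against MRTFB dN dPY and 21 for the Puro against the Hygro vector. A replicate block within the 8 MRTFB libraries gave 27 for YAP 5SA, 8 for MRTFB dN Y305A, 4 for MRTFB dN Y305A against MRTFB dN and 18 for the Puro against the Hygro vector. A fit on the 8 MRTFB libraries alone with a replicate block, chosen after seeing the data, gave 1 for MRTFB dN dPY against MRTFB dN, 9 for MRTFB dN Y305A against MRTFB dN, 19 for MRTFB dN Y305A/dPY against MRTFB dN dPY and 7 for the PY deletion over both backgrounds, where 0.228% of all loci passed. These 7, all lower, were BUB1 (-1.22 ± 0.09), FOXM1 (-1.18 ± 0.10), KIF20A (-1.42 ± 0.14), KIF23 (-0.84 ± 0.09), KIF2C (-1.39 ± 0.13), BIRC5 (-1.21 ± 0.12) and DLGAP5 (-1.15 ± 0.11), with limma adjusted p between 0.0278 and 0.0496. For the other counts of the block fits no share of all loci is given, so they show no change particular to the members. In the last fit 12 of 48 other G2/M genes passed for MRTFB dN Y305A against MRTFB dN, 9 higher and 3 lower. The main fit called 2. For MRTFB dN Y305A/dPY against MRTFB dN dPY 17 passed, 14 higher and 3 lower, against 2 in the main fit. Of the 24 APC/C, cohesin and checkpoint core genes 7 and 6 passed in these comparisons, against 1 and 1 in the main fit. No share of all loci is given for these comparisons in this fit, so the counts show no change particular to G2/M genes.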
